A study of Arabidopsis thaliana with 4 samples.

Results

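Of the 18 hormone gene families followed here, 7 genes could be measured by a probe of their own, among 5386 genes tested. All 7 belonged to auxin. They were 4 repressors of the Aux/IAA family, IAA15 (AT1G80390), IAA29 (AT4G32280), IAA31 (AT3G17600) and IAA33 (AT5G57420), and 3 amido synthetases of the GH3 family, GH3.1 (AT2G14960), GH3.3 (AT2G23170) and GH3.9 (AT2G47750). They were found by symbol. The gene table held 169 genes of 18 families of auxin, gibberellin, jasmonate, ethylene, cytokinin and abscisic acid whose symbols follow the family names SAUR, IAA, ARF, PIN, GH3, YUC, GA20OX, GA2OX, GA3OX, LOX, AOC, ACS, ARR, AHP, CKX, IPT, PYL and JAZ. A gene entered where a probe listed it and no other gene and had values on all 4 arrays. Of the 83 auxin genes 7 did, and a further 5 were listed only on probes shared with other genes. None of the 15 gibberellin, 20 jasmonate, 12 ethylene, 28 cytokinin and 11 abscisic acid genes with these symbols was listed on a probe in the annotation used here, so the hormones could be set side by side only through other genes of their pathways and through shared probes. Response regulators that the gene table names RR rather than ARR are not among the 28, and those with probes are given under other observations.

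The mutant pistillata of Arabidopsis thaliana was set against the wild type in inflorescences, the flower-bearing shoot tips. Without PISTILLATA, a MADS-box factor, flowers form neither petals nor stamens. The sources used here do not give the allele, the ecotype or the age of the plants. Total RNA of both genotypes was hybridised together on each of 4 arrays of oligonucleotide probes, here numbered as the sets in the labels, and each value is the log2 ratio of the genotypes on 1 array. The labels do not say whether the arrays hold separately grown plants, so p-values cover only an array-to-array spread that may be technical. The deposited values are ratios without signal strengths, so no gene's level, and no comparison of levels between genes, can be given.

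Auxin acts by destroying repressors. Aux/IAA proteins hold auxin response factors inactive until the hormone brings them to the receptor TIR1 or its relatives for ubiquitination, and many Aux/IAA genes are themselves switched on by auxin. GH3 enzymes join auxin or other acidic hormones to amino acids, which stores or inactivates them. In the flower, auxin has roles in organ initiation, stamen growth and patterning of the gynoecium.

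The sign of each ratio had to be settled first, because the labels' channel order and the values disagreed. The genes SWEET8, SHT, ATA20 and TUA1 of the anther and its pollen, organs that pistillata flowers lack, had median deposited log2 ratios of 2.91, -2.77, -3.15 and 3.72 on arrays 1 to 4. Ratios of arrays 1 and 4 were therefore multiplied by -1, and the resulting direction, pistillata over wild type, is likely but not settled. If the common sign were exchanged, every higher value below would be a lower one and the reverse. When the labels' channel order was used for the turning instead, 0 genes passed limma's test at an adjusted p of 0.05 and 18 had an unadjusted p under 0.05, none of them an auxin gene (0 of 7).

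IAA15 was the only auxin gene to pass the test, and it was higher in pistillata. Its log2 ratio was 0.64, 0.51, 0.42 and 0.69 on arrays 1 to 4. All 4 values were positive and close to each other, with an SD at the 7.98th percentile of all genes. The mean of 0.57 ± 0.12 (SD, n = 4) amounts to a 1.48-fold higher ratio, with a 95% interval of 0.31 to 0.82 and an adjusted p of 0.0363 by limma. The median of all genes was itself 0.16, so IAA15 stood at the 88.8th percentile of gene means. When each array was centred on the median of its gene probes, a baseline other than the median of genes, the ratio was 0.45 and the adjusted p 0.0718. Without array 1, 2, 3 or 4 the adjusted p was 0.101, 0.156, 0.122 and 0.114. In whole inflorescences a different number of cells of a type and a different amount of RNA per cell cannot be told apart.

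IAA33, an Aux/IAA relative without the conserved degron through which auxin destabilises these proteins, had the highest mean of the family. Its log2 ratio was 1.77, 1.51, 0.52 and 0.13 on arrays 1 to 4. Arrays 1 and 2 gave high values and arrays 3 and 4 low ones, all above 0. On array 4 IAA33 was only 0.025 above the median of all genes on that array. The mean was 0.98 ± 0.78 (SD, n = 4), at the 95.5th percentile of gene means, and did not pass the test (limma adjusted p = 0.124). Its 95% interval ran from 0.15 to 1.82, so a change from slight to more than 2-fold lies within it.

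IAA29 and IAA31 lay on the other side of 0. IAA29, a repressor known as an early target of shade signalling in seedlings, had log2 ratios of -0.55, -0.37, -0.32 and -1.16 on arrays 1 to 4. All 4 were negative, with array 4 the lowest, and the mean of -0.60 ± 0.39 (SD, n = 4) did not pass (limma adjusted p = 0.105). IAA31 had -0.14, -0.44, -0.06 and -0.27 on arrays 1 to 4. Its mean of -0.23 ± 0.17 (SD, n = 4) also did not pass (limma adjusted p = 0.221), although it was negative on every array. IAA31 belongs with IAA20 and IAA30 to a group of Aux/IAA proteins that lack a complete degron and are broken down slowly.

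The Aux/IAA genes therefore did not share 1 direction. Of the 4, 2 had positive and 2 negative ratios on all 4 arrays, and the median of their means was 0.17, next to 0.16 for all genes. IAA15 exceeded IAA29 on all 4 arrays, by 1.16 ± 0.49, and IAA31 on all 4, by 0.80 ± 0.22 (log2 units, SD of the within-array difference, n = 4). IAA33 and IAA15 kept their order on only 3 of 4 arrays.

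**Figure D1:**
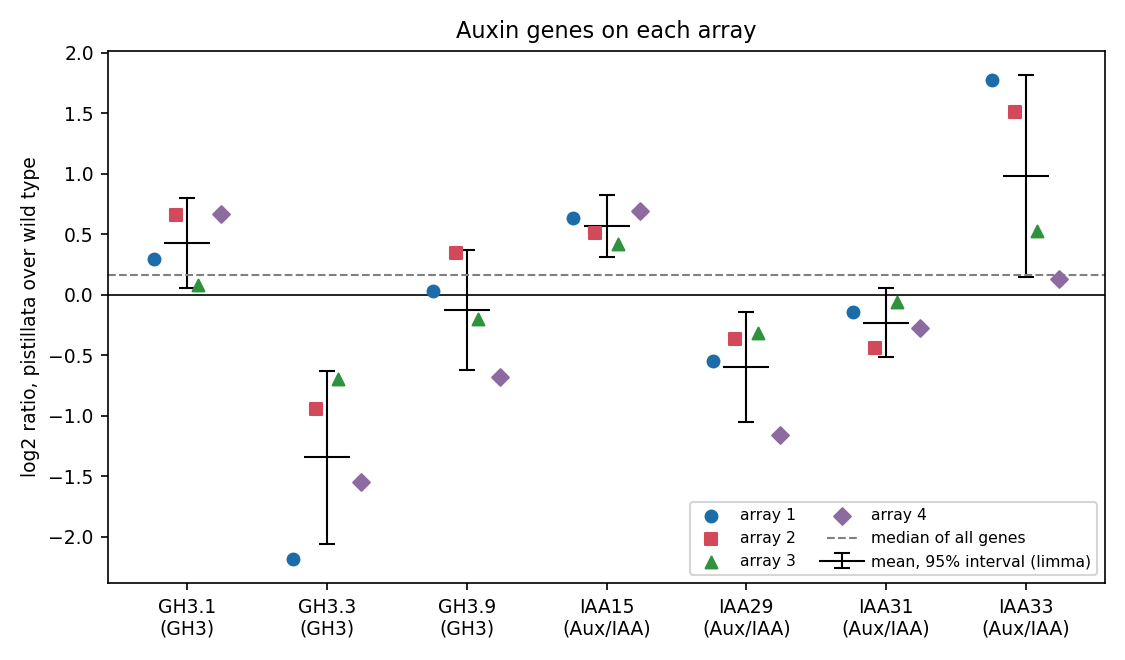
Log2 ratio of pistillata over wild type (y axis) of each auxin gene on arrays 1 to 4 (coloured points), with the mean and its 95% interval from limma (black) and the median of all genes (dashed). GH3.3 lies lowest, from -2.18 to -0.70, IAA15 is tightly grouped from 0.42 to 0.69, and the values of IAA33 spread from 0.13 to 1.77.

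GH3.3 had the largest mean change of the 7 genes and came just short of the threshold. The enzyme is made early after auxin treatment and conjugates auxin, and it acts on jasmonic acid as well. Its log2 ratio was -2.18, -0.95, -0.70 and -1.55 on arrays 1 to 4. Every array gave a negative value, and arrays 1 and 4, whose ratios were turned, gave larger ones than arrays 2 and 3. The mean of -1.34 ± 0.66 (SD, n = 4) corresponds to a 2.54-fold lower ratio with a 95% interval of -2.06 to -0.63, at the 4.96th percentile of gene means (limma adjusted p = 0.0547). With a term for the orientation of arrays 1 and 4 against 2 and 3 in the fit, GH3.3 passed at an adjusted p of 0.0287. With each array centred on the median of its gene probes it passed at 0.0468 with a ratio of -1.46. It did not pass without any 1 array, where the adjusted p ran from 0.0875 to 0.151 and the ratio from -1.56 to -1.06.

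GH3.1, a close relative of GH3.3 that also conjugates auxin, lay on the opposite side of 0. Its log2 ratio was 0.30, 0.66, 0.08 and 0.67 on arrays 1 to 4, all positive. Relative to the median of all genes on the array, however, GH3.1 was at -0.06 on array 3. Its mean of 0.43 ± 0.29 (SD, n = 4) did not pass (limma adjusted p = 0.128). The ratio of GH3.1 exceeded that of GH3.3 on all 4 arrays, by 1.77 ± 0.75 log2 units (SD, n = 4). GH3.9, a member with a known part in primary root growth, had ratios of 0.03, 0.34, -0.20 and -0.68 on arrays 1 to 4. These values fell on both sides of 0, and the mean of -0.13 ± 0.43 (SD, n = 4) was not told apart from it (limma adjusted p = 0.664, 95% interval -0.62 to 0.37).

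By the adjusted p, 1 of the 7 auxin genes was called higher, where 2.75% of all tested genes were, and 0 were called lower, where 5.79% of all genes were. At an unadjusted p under 0.05 by limma there were 5 of 7, GH3.1, GH3.3, IAA15, IAA29 and IAA33, and 30.8% of all genes, with 3 of the 5 higher (20.3% of all genes) and 2 lower (10.5% of all genes). The ratio kept 1 sign on all 4 arrays for 6 of 7 and for 43.7% of all genes, with 3 positive and 3 negative beside 30.8% and 12.9% of all genes. These counts rest on 7 genes chosen by symbol and describe them only. The median of the 7 means was -0.13, and that of all genes 0.16.

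**Figure D2:**
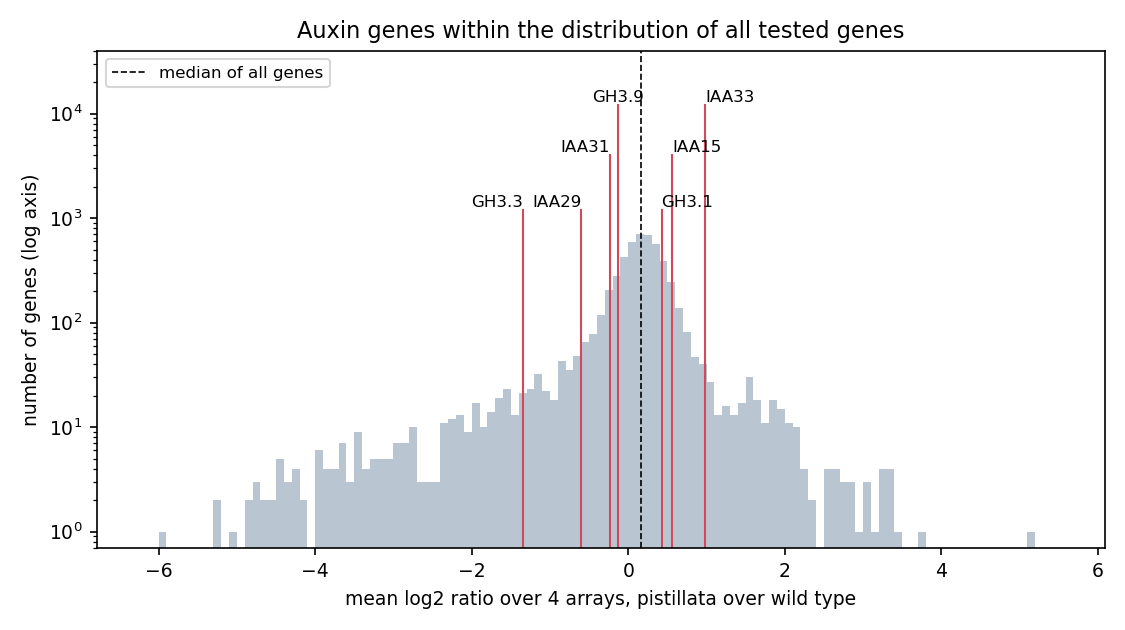
Number of genes (log axis) by mean log2 ratio of pistillata over wild type on 4 arrays, for 5386 genes in bins of equal width, with the auxin genes as red lines and the median of all genes, 0.16, dashed. The auxin genes lie between -1.34 for GH3.3 and 0.98 for IAA33, on both sides of the median.

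The auxin genes were also compared in order on each array. Of their 21 pairs, 16 had the same order on all 4 arrays. The pairs share genes, and no such share was computed for pairs of all genes, so the count only describes the auxin genes. GH3.3 had the lowest ratio on every array, and IAA33 had the highest on arrays 1, 2 and 3, whereas IAA15 was highest on array 4. The pairs without a fixed order were GH3.1 with IAA15 and with IAA33, IAA15 with IAA33, IAA29 with IAA31, and GH3.9 with IAA31. For the last pair the difference was 0.10 ± 0.51 log2 units (SD, n = 4), well within its spread.

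Probes shared between genes of a family extended the view, although such a probe cannot say which of its genes it reports. Over all 26156 probes, 7.23% were lower and 2.98% higher by limma. A probe listing GH3.9 together with GH3.17, an enzyme that prefers glutamate as the partner of auxin, was lower in pistillata. Its log2 ratio was -1.80, -2.34, -2.65 and -1.89 on arrays 1 to 4, with a mean of -2.17 ± 0.40 (SD, n = 4; limma adjusted p = 0.00428). All 4 values lay far below those of the probe for GH3.9 alone. Another probe listing the same 2 genes gave 0.10, 0.03, 1.78 and 0.38 on arrays 1 to 4, with a mean of 0.57 ± 0.82 (SD, n = 4; limma adjusted p = 0.309). The 2 shared probes thus differed by 2.74 log2 units.

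The shared probe of YUC2 and YUC6, flavin monooxygenases of the last step of auxin synthesis that together are needed for stamen and pollen development, had ratios of -0.29, 0.013, 0.0038 and -0.46 on arrays 1 to 4. Its mean of -0.18 ± 0.23 (SD, n = 4) did not pass (limma adjusted p = 0.376). The probe of IAA20 and IAA30 ran from -2.10 on array 4 to the upper limit of the table, 6.64, on array 3. The probe of IAA20, IAA30 and IAA31 ran from -3.24 on array 4 to 0.35 on array 3. Both had values of each sign and neither passed (limma adjusted p = 0.586 and 0.498), so these probes give no direction.

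Genes of the auxin pathway outside these families came from a list of regulators of synthesis, transport, perception and response, of which 67 were in the gene table and 0 had a probe of their own. A pair of its members appeared on shared probes with a close relative. A probe of NGA3 and NGA4, B3 factors that shape the style with the help of auxin synthesis genes, was higher in pistillata at 0.91, 0.59, 0.94 and 1.02 on arrays 1 to 4 (mean 0.87 ± 0.19, SD, n = 4; limma adjusted p = 0.0161). A second probe of the same genes had a mean of 0.54 ± 0.38 (SD, n = 4) and did not pass (limma adjusted p = 0.122), with array 4 at 0.0087. For SPT and ALC, bHLH factors of gynoecium and fruit, 2 probes had means of 0.65 ± 0.28 and 0.76 ± 0.38 (SD, n = 4 each), positive on all 4 arrays, and did not pass (limma adjusted p = 0.0588 and 0.0643). SPT and ALC also stand on the list of carpel and ovule markers, but were measured only by shared probes. The carpel and ovule markers measured by a probe of their own were 2 of 18, INO at -0.20 and SEU at 0.15, neither called. The mean of these 2 ran from -0.20 to 0.14 over the arrays. Their part in the values of the style and gynoecium genes was not tested.

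For jasmonate, the signal that drives late stamen growth and opening of the anther, 1 of the 37 listed genes found in the gene table had probes of its own, and it was strongly lower. JMT (AT1G19640) methylates jasmonic acid to the volatile methyl jasmonate. Its log2 ratio, the mean of 2 probes, was -2.60, -3.01, -2.85 and -2.50 on arrays 1 to 4. The 4 values spanned little, and the mean of -2.74 ± 0.23 (SD, n = 4) was 6.67-fold lower, with a limma adjusted p of 0.00158. The probes agreed, with means of -3.14 ± 0.24 and -2.33 ± 0.33 (SD, n = 4 each; limma adjusted p = 0.000964 and 0.00247). A probe that lists JMT with BSMT1, NAMT1 and AT4G36470, methyltransferases of the same family, stood at -2.04 ± 0.38 (SD, n = 4; limma adjusted p = 0.00462).

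Anther and nectary markers were lower as well. The anther and tapetum list, of which 3 of 19 markers were measured, had a mean between -4.09 and -2.96 on the 4 arrays, with all 3 lower, but these genes also set the sign. The petal and nectary list was represented by 1 of 9 markers, the nectary sugar transporter SWEET9, at -5.27 to -4.42. The mature pollen list was represented by 1 of 19 markers, TUA1, at -0.86 to -0.30, which was not called (limma adjusted p = 0.102). The leaf and photosynthesis list went the other way. It was represented by 1 of 8 markers, SBPASE, at 0.07 to 0.85 with a mean of 0.54, which was not called (limma adjusted p = 0.103). The part of these markers in the values of JMT, GH3.3 and IAA15 was not tested.

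The bHLH factors MYC3 and MYC4, which with MYC2 switch on jasmonate-responsive genes, shared a probe that was higher in pistillata. It gave 1.42, 1.30, 0.75 and 1.07 on arrays 1 to 4, with a mean of 1.13 ± 0.30 (SD, n = 4; limma adjusted p = 0.0144). The 2 jasmonate probes listing OPCL1, a CoA ligase of jasmonate synthesis, with other ligases did not pass (limma adjusted p = 0.425 and 0.951). One of them reached the limit of 6.64 on array 1.

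For gibberellin, which promotes stamen filament growth by removing DELLA repressors, no probe passed. GID1B (AT3G63010), one of the gibberellin receptors, was alone among the 36 listed genes found in the gene table in having its own probe, at -0.06, 0.58, 0.55 and -0.50 on arrays 1 to 4. These values fell on both sides of 0, with arrays 2 and 3 high, and gave a mean of 0.14 ± 0.52 (SD, n = 4; limma adjusted p = 0.684). The probe of GID1A and GID1C, the other receptors, stood at 0.37 ± 0.42, and that of SLY1 and SLY2, F-box proteins that mark DELLA repressors for destruction, at 0.22 ± 0.31 (SD, n = 4 each). Their adjusted p by limma was 0.252 and 0.371. The probe that lists all GID1 receptors with the related CXE18 gave 0.09, 0.52, 1.53 and 0.73 on arrays 1 to 4, positive on each, with a mean of 0.72 ± 0.61 (SD, n = 4). It had an unadjusted p under 0.05 and a limma adjusted p of 0.145.

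For cytokinin, UGT76C2 (AT5G05860), which inactivates cytokinins by adding glucose, was alone among the 52 genes that the list matched in the gene table in having its own probe. Its ratios were 0.13, -0.08, -0.10 and 0.42 on arrays 1 to 4, of both signs, with a mean of 0.09 ± 0.24 (SD, n = 4; limma adjusted p = 0.649). A probe listing UGT76C2 with UGT76B1 and UGT76C1 stood at -0.37 ± 0.33 (SD, n = 4; limma adjusted p = 0.191). Another probe, listing 5 genes with UGT76C2 among them, stood at -1.92 ± 3.20 (SD, n = 4; limma adjusted p = 0.355). It reached the lower limit of the table, -6.64, on array 1. For ethylene, 0 of the 34 listed genes found in the gene table had a probe of their own. RTE1, a regulator of the receptor ETR1, shared 2 probes with its relative RTH, and their means were 0.30 ± 0.07 and -0.04 ± 0.40 (SD, n = 4 each; limma adjusted p = 0.117 and 0.893). For abscisic acid, 0 of the 46 listed genes found in the gene table were measured.

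Across all the hormone lists, 21 shared probes had 4 values, and some of them list the same genes as another. By limma 2 were lower, where 7.23% of all probes were, and 2 higher, where 2.98% were. An unadjusted p under 0.05 by limma was found for 9 of the 21 and for 30.6% of all probes. The 2 lower probes were those of GH3.17 with GH3.9 and of JMT with its relatives, and the 2 higher ones those of NGA3 with NGA4 and of MYC3 with MYC4. Of the 3 listed pathway genes outside the 18 families that had probes of their own, JMT alone was called, and it passed under each other setting that gave it a value except the labels' channel order. The difference between hormones was not tested, because by the families and lists auxin was measured by 7 genes and each of jasmonate, gibberellin and cytokinin by 1. These counts hold only genes matched by a listed name. A later, wider search, given under other observations, added JRG21 for jasmonate and the response regulators RR18, RR19 and RR23, none of them called.

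**Figure D3:**
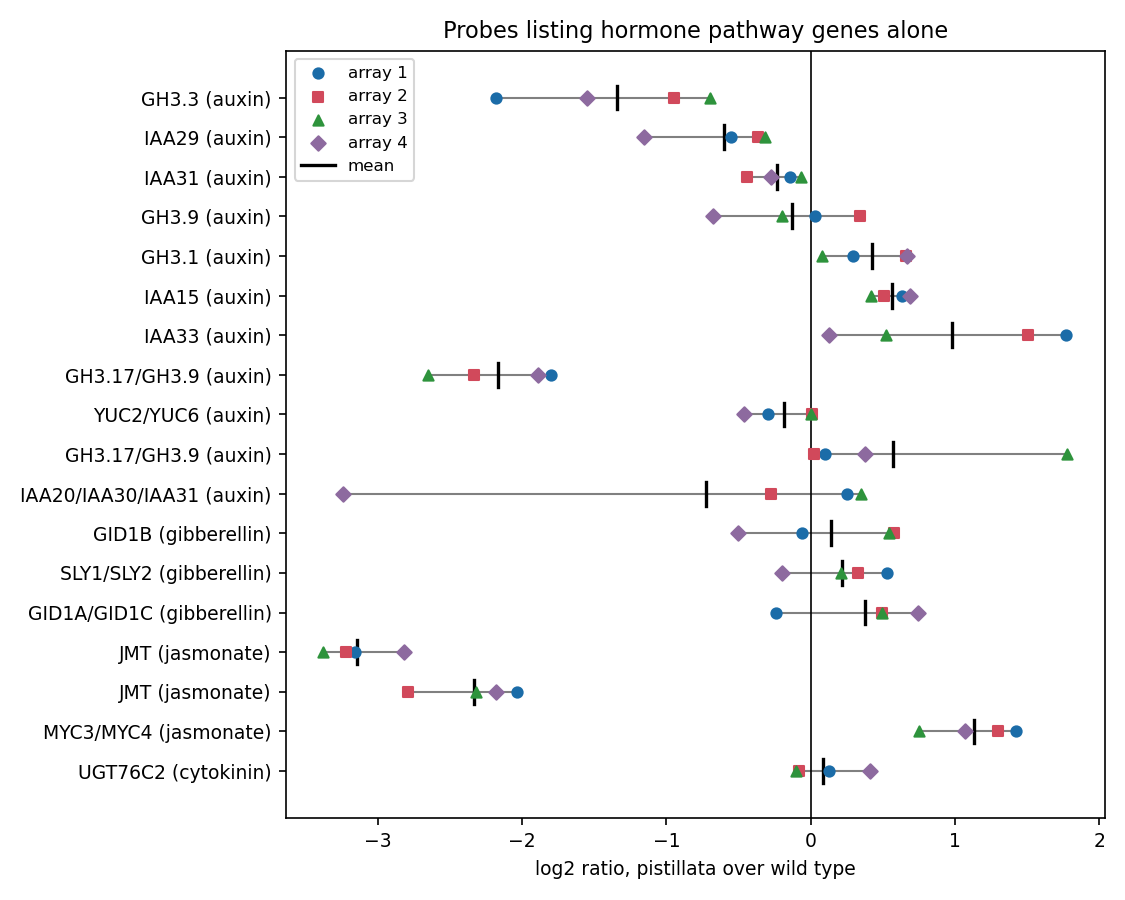
Log2 ratio of pistillata over wild type (x axis) on arrays 1 to 4 (points) with the mean (black bar), for each probe that lists hormone genes of the families or lists and no other gene, leaving out probes with a value at the limit of the table. Both JMT probes and 1 of the 2 probes of GH3.17 with GH3.9 lie at -1.80 or lower, the probe of MYC3 with MYC4 lies at 0.75 or higher, and 7 of the other 14 probes have values of both signs.

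The call of IAA15 and the missed call of GH3.3 both sat near the threshold, and the choice of fit decided them. Over 14 other settings GH3.3 passed under 7, and IAA15 stayed past the threshold under 6. The ratio of GH3.3 was negative under each of the 14 except the labels' channel order, where it was 0.22, and that of IAA15 was positive under each except the same one, where it was -0.0092.

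**Figure D4:**
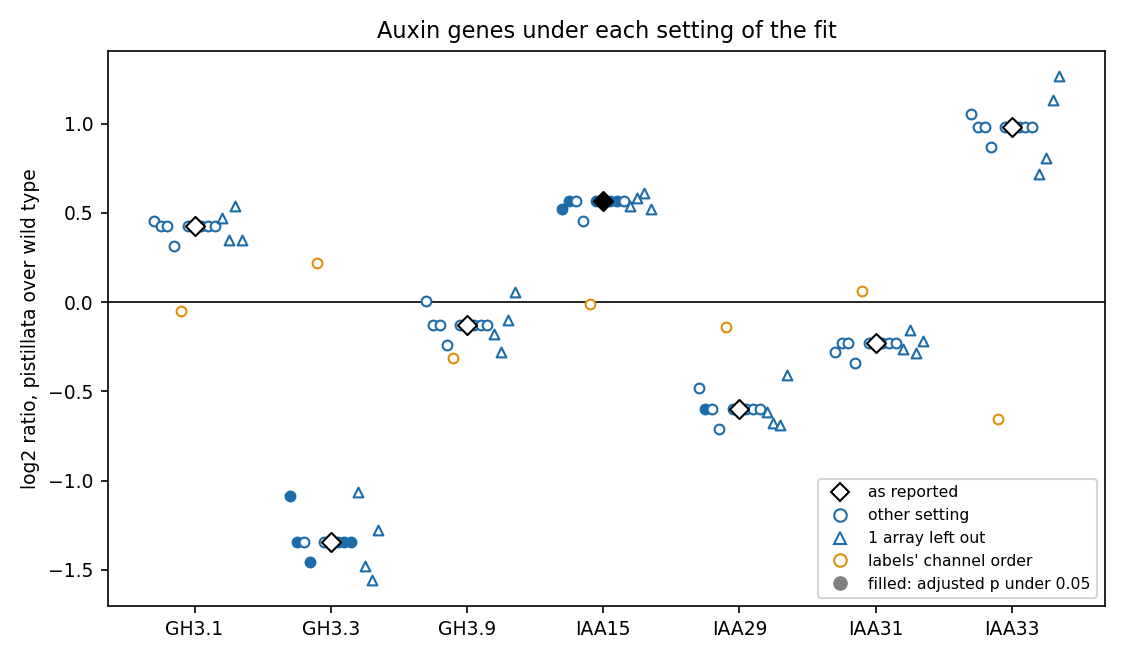
Log2 ratio of pistillata over wild type (y axis) of each auxin gene as reported (black diamonds) and under each other setting of the fit (circles, with triangles where 1 array was left out and orange for the labels' channel order). Filled symbols mark an adjusted p under 0.05. GH3.3 passes under 7 of 14 other settings and IAA15 under 6, and GH3.9 changes sign under 2.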

How the data were processed

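The authors deposited log2 ratios of the channels of 4 two-colour arrays, made by the methods of an earlier publication, per the labels. The sources used here do not give the background correction, the dyes, the numerator or the centring. The scale was read from the limits of the table at 6.64 on either side of 0. Probes were named through the platform annotation and the gene table (assembly TAIR10.1): 5784 of 26474 gene probes list 1 gene, which gave 5443 genes, 5415 of them matched by gene number. Several probes of a gene were averaged. ADP-ribosylation factors named ARF and the recombination gene AHP2 were left out of the families. Arrays 1 and 4 were multiplied by -1. Limma version 3.58.1 in R version 4.3.3 fitted the mean of the 4 ratios (lmFit, eBayes, two-sided, Benjamini-Hochberg over all 5386 genes, or over 26156 probes for shared probes), with a threshold of 0.05; the fit was tested on simulated data. The number of arrays limits the precision. The members, gene lists and tests were chosen with earlier results of these data known. The naming rule covers members past the threshold, at an unadjusted p under 0.05, or highest or lowest of their hormone, and small families, which together take in all 7 with IAA31 added; shared probes were chosen after their values were seen. Alternatives were centring on the median of all gene probes of an array, an orientation term, arrays 1 and 2 and arrays 3 and 4 as blocks or averaged, robust moderation, array weights, no capped probes, the labels' channel order, genes with 1 probe, single probes, and each array left out.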

Additional observations from a re-analysis of the deposited data

How the results depend on the processing

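Auxin genes called higher numbered 1 as reported and 0 with arrays 1 and 2 and arrays 3 and 4 averaged, with median centring, with the orientation term, with the labels' channel order and without any 1 array. Auxin genes called lower numbered 0 as reported, 0 without any 1 array, 1 with array weights, median centring, the orientation term, robust moderation, capped probes left out or single probes (GH3.3 each time), and 2 with the random block (GH3.3 and IAA29, limma adjusted p = 0.0209 and 0.0467), whose estimated correlation was -0.30. With the same pairs averaged first the count lower was 0, and GH3.3 and IAA29 had limma adjusted p of 0.0897 and 0.173. Under the other settings GH3.3 had a limma adjusted p of 0.0174 without capped probes, 0.0375 with robust moderation, 0.0417 with array weights and 0.0499 over single probes. Of all genes, 312 were lower and 148 higher. These counts were 123 and 21 with the pairs averaged, 0 and 0 by the labels' channel order, 1890 and 779 over single probes, and 159 to 192 and 19 to 43 without 1 array. Genes higher numbered 365 with array weights, 601 with the block, 77 after centring, 311 without capped probes and 86 with the orientation term. By the labels' channel order the signs turned for GH3.1 (-0.052), GH3.3 (0.22), IAA15 (-0.0092), IAA31 (0.062), IAA33 (-0.66), GID1B (-0.12) and JMT (0.065), each with a limma adjusted p of 1. GH3.9 turned to 0.0085 with array weights, and UGT76C2 to -0.022 with centring. Without 1 array, GH3.9 ran from -0.28 to 0.057 (positive without array 4), GID1B from -0.0052 to 0.35 (negative without array 2) and UGT76C2 from -0.019 to 0.15 (negative without array 4). The causes were not tested. No paired analysis was possible because the samples form 1 group, with no other group to share replicate numbers. Each ratio already sets the genotypes against each other within an array. With no signal over background, weak probes cannot be set apart.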

Other observations

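A wider search of the symbols and synonyms in the gene table, for response regulators and hormone names, was made after the data were examined. It added 4 genes with a probe of their own, none of them called. RR18, RR19 and RR23, response regulators of the phosphorelay family through which cytokinin signals, had mean log2 ratios of pistillata over wild type of 0.21 ± 0.28, 0.05 ± 0.23 and 0.19 ± 0.68 (SD, n = 4 each; limma adjusted p = 0.343, 0.814 and 0.659). RR18 was positive on all 4 arrays, and RR23 was at -0.37 and -0.40 on arrays 1 and 3 and at 0.58 and 0.94 on arrays 2 and 4. JRG21 (AT3G55970), a jasmonate-regulated gene, was matched by no name on the jasmonate list and is not in the counts for that hormone. Its log2 ratio was -0.02, 0.74, 1.04 and -0.22 on arrays 1 to 4, with arrays 2 and 3 high (mean 0.38 ± 0.60, SD, n = 4; limma adjusted p = 0.343).

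The probe that lists RR22 and RR24 together was negative on every array, at -0.81, -2.06, -1.30 and -0.07 on arrays 1 to 4. Its mean of -1.06 ± 0.84 (SD, n = 4) did not pass over all probes (limma adjusted p = 0.122).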
